A study of Danio rerio with 12 samples.

Results

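Glutathione transferases, UDP-glucuronosyltransferases and cytosolic sulfotransferases join a polar group to a foreign or endogenous molecule, which makes it easier to excrete. The transferases of glutathione use the tripeptide glutathione, the glucuronosyltransferases use UDP-glucuronate, and the sulfotransferases use the sulfate donor PAPS. In vertebrates the liver and the gut are major sites of these reactions, and several of the genes are targets of the oxidative stress factor Nrf2 or of nuclear receptors that sense foreign compounds. The genes described here are those of zebrafish larvae whose deposited symbol begins with gst, ugt or sult followed by a class letter or a family number. There were 64 of them among 26255 genes: 17 gst, 30 ugt and 17 sult genes.

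The larvae had been exposed to DMSO as the solvent control (n = 5), to broflanilide at 1 µg/L (the low dose, n = 4) or to broflanilide at 10 µg/L (the high dose, n = 3). Broflanilide is a meta-diamide insecticide, and its target in insects is the chloride channel gated by GABA. All libraries were made from poly(A) RNA of whole larvae, and no strain or genotype is named. The sources used here do not give larval age, exposure time or the number of larvae behind a library, nor do they say that libraries came from separate clutches, so p-values reflect only how far these samples differ among themselves, which may be technical. In RNA from whole larvae, fewer cells of a type and less RNA per cell cannot be told apart.

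Total counts were 11721407 to 15491749 per control library, 10721597 to 16380300 per low-dose library and 11920241 to 13865533 per high-dose library. Control replicates 2 and 3 and low dose replicate 4 stood apart: over 18786 genes their log2 CPM differed from the mean of their group's other libraries with an SD of 0.99, 1.07 and 1.03, against 0.60 to 0.77 for the other 9 libraries. Some of the results that rest on them are also given without them, and others only with them. The levels below are CPM (counts brought to a shared library size), and comparisons between genes use CPM per kilobase of the deposited gene length. Defining markers of the digestive organs were present in all libraries: of 14 hepatocyte genes 13 were listed and none of these was at 0 in any library, and their summed level ran from 598 to 3274 CPM in controls, from 1182 to 2017 CPM at the low dose, and stood at 1166, 3168 and 3449 CPM at the high dose. The 12 enterocyte genes summed to between 368 and 1723 CPM in controls, between 614 and 1206 CPM at the low dose and between 525 and 1138 CPM at the high dose.

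A few genes carried most of the signal. In controls 7 genes held 77.9% of the summed level per kilobase of all conjugation enzyme genes: gstp1, sult4a1, gstr, gstm.1, sult6b1, sult2st2 and gstk1. The glutathione transferases held 62.2% of that sum, the sulfotransferases 32.5% and the glucuronosyltransferases 5.30%, although the last family has the most genes. The 5 highest genes made up 87.9% of the gst sum and 87.1% of the sult sum, against 52.9% of the ugt sum, which was spread over many genes of low level. Of the 64 genes, 39 had reads in every library.

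**Figure D1:**
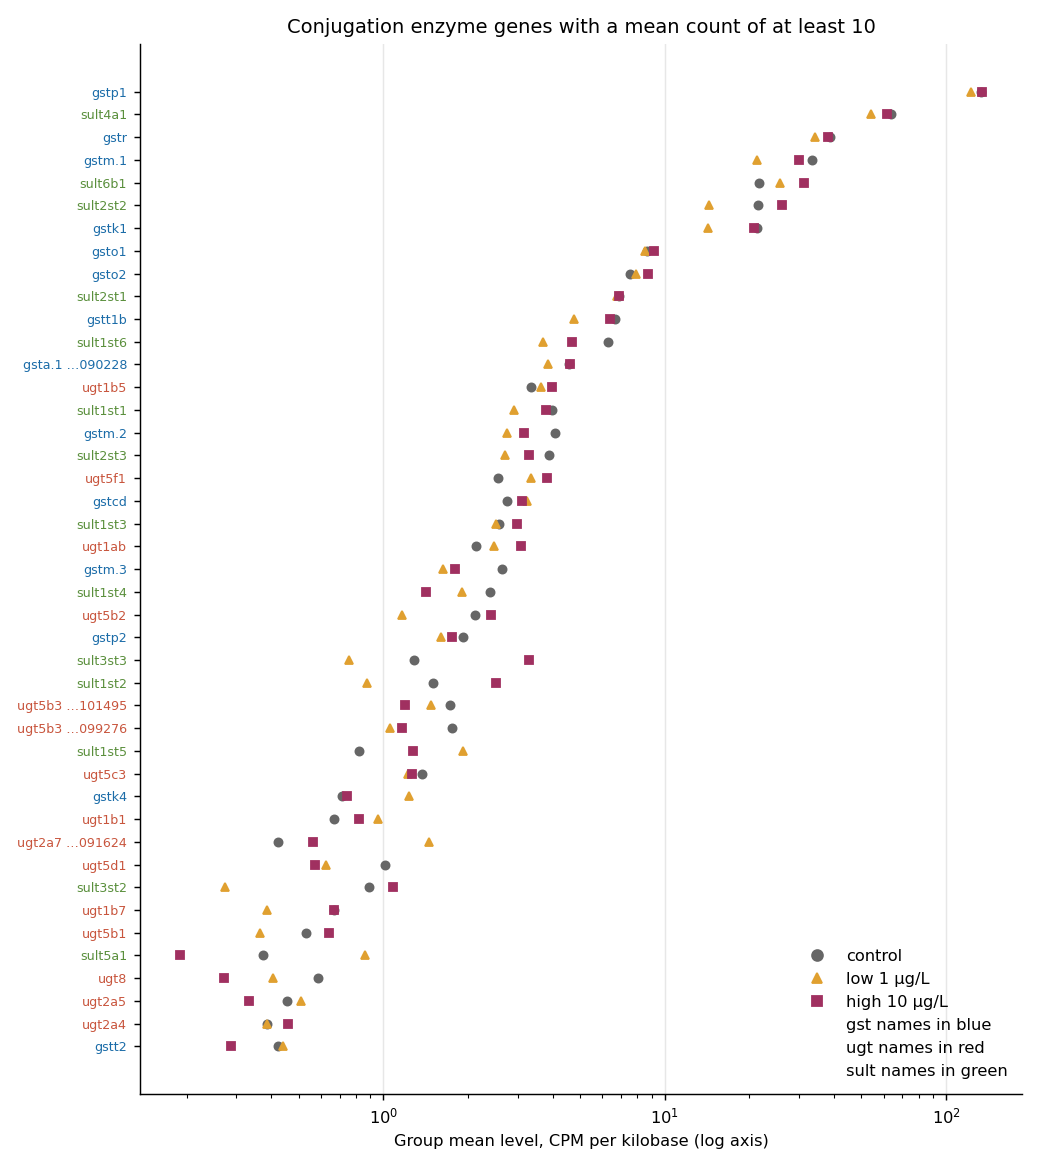
Group mean level in CPM per kilobase (log axis) of each conjugation enzyme gene with a mean count of at least 10 over the libraries, ordered by level, for the controls, the low dose and the high dose. Names are coloured by family. The gst genes in blue and the sult genes in green fill the upper rows, and the highest ugt gene, ugt1b5, stands at 3.34 CPM per kilobase in controls.

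The pi class gene gstp1 (ENSDARG00000104068, chromosome 14 from 3507326 to 3514055, plus strand, GRCz11) was the most abundant. Its product conjugates electrophiles, and in zebrafish it is a standard readout of Nrf2 activity. Its level was 107, 66.4, 168, 145 and 109 CPM in the 5 controls, 115, 135, 139 and 50.8 CPM at the low dose, and 91.0, 130 and 139 CPM at the high dose. The groups overlapped throughout, and the lowest values were those of low dose replicate 4 and control replicate 2. Per kilobase it averaged 133 ± 43.8 in the 5 controls, 123 ± 45.6 in the 4 low-dose libraries and 135 ± 28.8 in the 3 high-dose libraries (mean ± SD, as for all levels below), above 98.4% of the genes measured. Its neighbour gstp2, which starts 11.8 kb upstream on the same strand, was far lower, at 1.92 ± 0.52 CPM per kilobase in controls. The reference name table calls gstp1 gstp1.2 and gstp2 gstp1.1. In single libraries gstp2 ran from 0 CPM in low dose replicate 3 to 3.23 CPM in high dose replicate 3.

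The other abundant glutathione transferases belonged to different classes. The rho class gene gstr, of a class found in fish, stood at 38.6 ± 7.76 CPM per kilobase in controls, 34.2 ± 11.7 in low-dose larvae and 38.1 ± 1.69 in high-dose larvae. The mu class lies as gstm.1, gstm.2 and gstm.3 side by side on chromosome 8, from 25295160 to 25307014, and gstm.1 carried most of its reads, with 33.5 ± 9.05 CPM per kilobase in controls against 4.09 ± 2.01 for gstm.2 and 2.64 ± 1.08 for gstm.3. The kappa class gene gstk1, whose mammalian counterpart acts in mitochondria and peroxisomes, averaged 21.2 ± 8.47 CPM per kilobase in controls, 14.2 ± 3.68 in low-dose larvae and 20.7 ± 5.78 in high-dose larvae. The omega class gene gsto1 was close to level across the groups, at 8.67 ± 1.98, 8.52 ± 2.44 and 9.15 ± 2.20 CPM per kilobase in controls, low dose and high dose.

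Among the sulfotransferases sult4a1 led. It is a brain sulfotransferase of mammals with no established substrate. Its level was 154, 185, 207, 179 and 167 CPM in controls, 139, 180, 157 and 133 CPM at the low dose, and 191, 145 and 180 CPM at the high dose. It was the steadiest of the named genes, with a coefficient of variation of 11.2% in controls, against 32.9% for gstp1 and 50.7% for sult2st2. Per kilobase it averaged 63.7 ± 7.14 in controls, 54.3 ± 7.58 in low-dose larvae and 61.5 ± 8.66 in high-dose larvae, 46.2% of the sult sum in controls.

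The next sulfotransferase, sult6b1, had 23.1, 22.4, 43.9, 37.8 and 39.5 CPM in controls, 37.7, 44.3, 32.7 and 43.7 CPM at the low dose, and 33.5, 57.2 and 53.3 CPM at the high dose. Of the hydroxysteroid class, which sulfates steroids and related alcohols, sult2st2 averaged 21.5 ± 10.9 CPM per kilobase in controls, 14.4 ± 4.44 in low-dose larvae and 26.1 ± 8.60 in high-dose larvae. Its neighbour on chromosome 12, sult2st1, averaged 6.89 ± 3.20, 6.78 ± 2.04 and 6.86 ± 3.39 CPM per kilobase in the same groups. In the phenol-sulfating sult1 class sult1st6 was highest, with 6.30 ± 1.15 CPM per kilobase in controls, 3.68 ± 1.26 in low-dose larvae and 4.68 ± 1.59 in high-dose larvae.

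The glucuronosyltransferases were low and lie in clusters. The 7 ugt1b genes occupy chromosome 11 from 30295582 to 30330015, 7 ugt2 genes lie on chromosome 5, and 5 ugt5b genes lie within a stretch of chromosome 1 that starts at 9626277. Of the 30 ugt genes, 14 overlapped another ugt gene on the same strand in the deposited coordinates, against 0 of the 17 gst and 0 of the 17 sult genes. The sources used here do not say how reads over several overlapping genes were counted, so the split of reads within the ugt1b, ugt5a and ugt5b clusters is uncertain. The 5 ugt5b genes also overlap elfn1b on the opposite strand, and counting by strand is not stated.

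By single gene the highest ugt levels were those of ugt1b5 (3.34 ± 0.79 CPM per kilobase in controls), ugt5f1 (2.56 ± 0.68), ugt1ab (2.13 ± 0.87), ugt5b2 (2.11 ± 0.81) and the gene deposited as ugt5b3 with ID ENSDARG00000101495 (1.73 ± 0.70). The reference name table calls ENSDARG00000101495 ugt5b2, and it calls the gene deposited as ugt5b2 (ENSDARG00000091916) ugt5b4. The ugt1 enzymes conjugate bilirubin and phenols in mammals, and ugt5 is a family of fish. The gene ugt1ab had 16.0, 6.18, 25.2, 19.0 and 18.6 CPM in controls, 29.3, 22.1, 18.0 and 9.25 CPM at the low dose, and 14.0, 26.7 and 33.1 CPM at the high dose. Taken as a locus, the ugt1b genes summed to 14.3 ± 1.60 CPM in controls, 14.1 ± 3.97 CPM in low-dose larvae and 15.5 ± 1.98 CPM in high-dose larvae. The ugt5b genes summed to 15.2 ± 4.68 CPM in controls, 10.2 ± 2.70 CPM in low-dose larvae and 13.7 ± 2.84 CPM in high-dose larvae. The doses overlapped each other, at 6.41 to 12.8 CPM and 10.8 to 16.5 CPM. Both overlapped the controls only through control replicate 2 at 6.89 CPM, as the other controls lay between 16.7 and 18.1 CPM.

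At family level the 3 groups overlapped. The gst genes summed to 241, 168, 374, 304 and 252 CPM per kilobase in controls, to 234, 284, 274 and 126 at the low dose, and to 217, 278 and 297 at the high dose, with means of 268 ± 76.8, 229 ± 72.5 and 264 ± 41.6. The ugt genes summed to 24.6, 13.1, 25.4, 25.6 and 23.6 CPM per kilobase in controls, to 24.1, 23.8, 19.4 and 19.6 at the low dose, and to 21.3, 23.8 and 24.9 at the high dose, with means of 22.5 ± 5.29, 21.7 ± 2.57 and 23.3 ± 1.82. The sult genes summed to 116, 105, 187, 151 and 131 CPM per kilobase in controls, to 119, 136, 118 and 106 at the low dose, and to 128, 161 and 161 at the high dose, with means of 138 ± 32.1, 120 ± 12.7 and 150 ± 19.0. In every family the difference between group means was smaller than the standard deviation of the controls. That is a spread of single libraries, with control replicates 2 and 3 among them, and not a test of the means. For sult the standard deviations of the doses, 12.7 and 19.0, were smaller than the 32.1 of the controls.

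**Figure D2:**
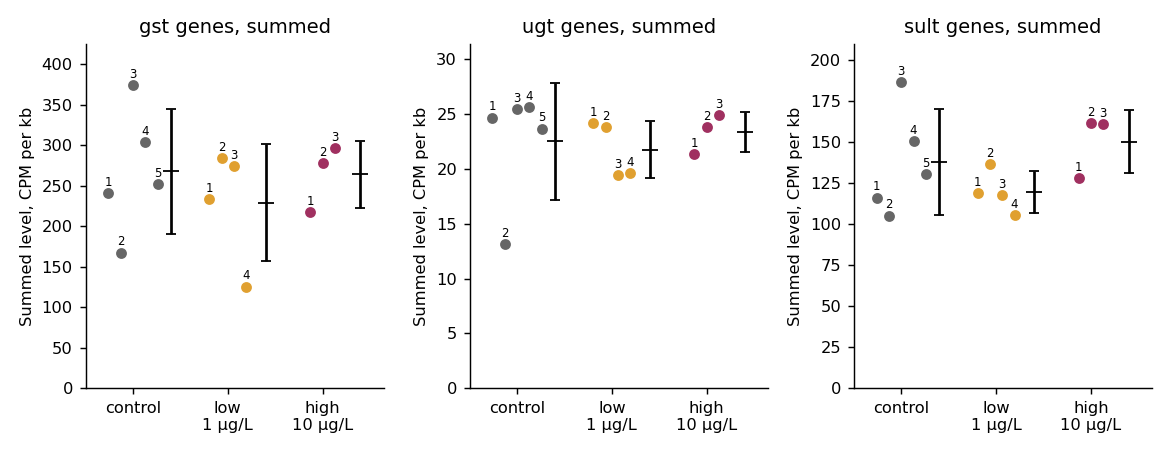
Summed level in CPM per kilobase of the gst, ugt and sult genes in each library (numbered points), with the mean and SD of each group beside them. The groups overlap in all 3 panels, and the lowest library is low dose replicate 4 for gst (126) and control replicate 2 for ugt (13.1) and sult (105).

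The balance of the families varied between libraries. In low dose replicate 4 the gst genes made up 50.1% of the summed level per kilobase and the sult genes 42.1%, against 62.2% and 32.5% in controls. Control replicate 2 was low in all 3 families, and its hepatocyte markers were the lowest of the 12 libraries. Family scores, the mean log2 CPM of a family minus its control mean, were -0.58 for gst, -0.52 for ugt and -0.73 for sult in that library, beside -1.38 for the hepatocyte markers. This was not particular to hepatocytes: skin markers were at -1.99, skeletal muscle -1.40, enterocyte -0.93, erythroid -0.91, exocrine pancreas -0.89 and pronephros -0.66. Only neuron markers were above 0, at 0.22. In control replicate 3 the sult score was 1.01 and the gst score 0.47, while the ugt score was -0.19. The summed hepatocyte level of control replicate 3, 3274 CPM, was the highest of the controls. Its scores were also high for skin (1.23), exocrine pancreas (1.14), enterocyte (1.09) and skeletal muscle markers (0.67), and lower for erythroid (0.40), pronephros (0.15) and neuron markers (0.02). The part of these markers in the family levels was not tested.

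**Figure D3:**
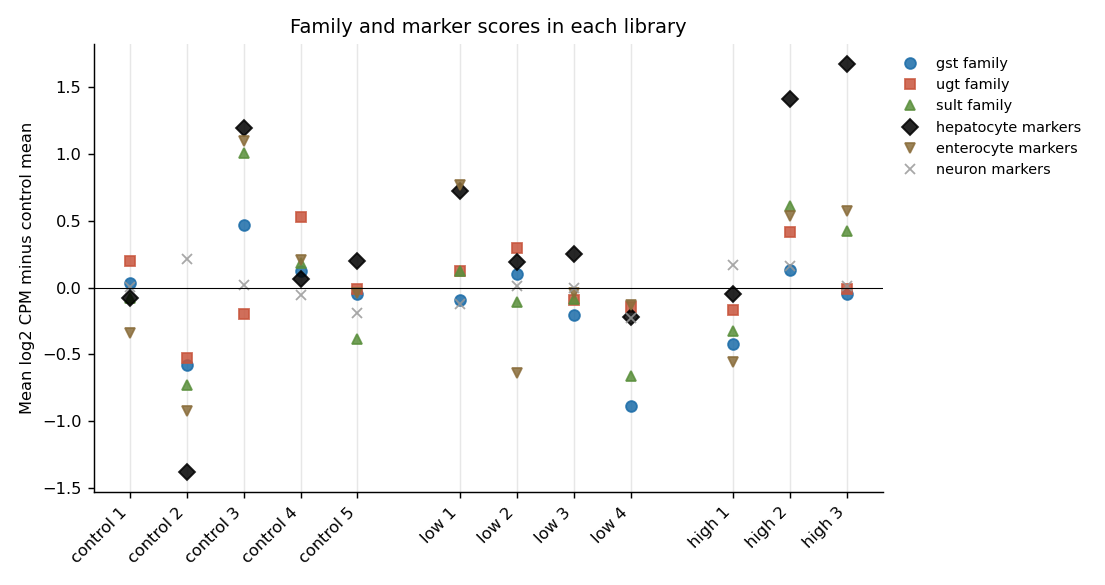
Mean log2 CPM of each family and of 3 marker lists in each library, minus the control mean. Control replicate 2 is low and control replicate 3 high for the hepatocyte and enterocyte markers and for sult, while the neuron markers stay near 0 in all libraries.

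Differences were tested with edgeR's quasi-likelihood test on the counts of all genes, with Benjamini-Hochberg adjustment over all genes tested and a threshold of 0.05. A mean count of at least 10 was needed, which 42 conjugation enzyme genes reached in each comparison of a dose with the controls (14 gst, 15 ugt and 13 sult). Another 21 reached it in no comparison: gsta.1 (ENSDARG00000113274), gsta.2 and gstk2, then sult1st7, sult1st9 and sult3st1, and 15 ugt genes. The ugt genes were ugt1b2, ugt1b3, ugt1b4, the pseudogene ugt1b6p, ugt2a6, ugt2b5, ugt5a1, ugt5a2, ugt5b5, ugt5c1, ugt5c2, ugt5g1, ugt5g2 and the ugt2a7 copies ENSDARG00000093043 and ENSDARG00000110614. Within groups the log2 CPM of tested genes varied with a median SD of 0.54 for gst, 0.72 for ugt and 0.65 for sult, against 0.48 over all genes.

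At the low dose, 1 of the 42 genes, a ugt2a7 copy, had all 4 treated libraries above every control, beside 0.707% of all genes, and none had them all below, beside 0.835%. By edgeR no conjugation enzyme gene passed the threshold. Across all genes the share that passed was 0.00% (0 of 18811). At an unadjusted p under 0.05 there were 3 of 42 conjugation enzyme genes or 7.14%, beside 3.89% of all genes. Of these, 1 was higher, beside 2.09% of all genes, and 2 were lower, beside 1.80%. Without low dose replicate 4 there was 1 such gene of 43, beside 1.48% of all genes. Without low dose replicate 2 there were 7 of 42, beside 6.4%, and without control replicate 2 there were 6 of 42, beside 4.85%. With DESeq2 a single gene of those tested passed (0.00532%), and in the authors' deposited table a single one of them was under an adjusted p of 0.05 (0.00532%). Neither was a conjugation enzyme gene.

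The ugt2a7 copy (ENSDARG00000091624, chromosome 5 from 9428876 to 9438370, plus strand) belongs to the ugt2 family, which conjugates steroids and other substrates in mammals. It was counted 43, 36, 27 and 48 times at the low dose, against 10, 3, 11, 16 and 8 times in the controls. These are 3.43, 2.51, 2.61 and 2.67 CPM at the low dose, against 0.737, 0.213, 1.15, 1.46 and 0.520 CPM in controls. The groups did not overlap, and the log2 fold change was 1.79 (SE 0.55, 95% interval 0.59 to 3.00). Its unadjusted p was 0.0069 and its edgeR adjusted p 0.924, short of the threshold. The authors' deposited table gives it a log2 fold change of 1.83 with an adjusted p of 0.665.

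At the high dose the same gene had 0.264, 1.22 and 1.78 CPM, with replicate 3 above the controls and the others within their range. Left out in turn, single libraries moved its low-dose fold change between 1.54 and 2.11, and without the 3 libraries that stood apart it was 1.67. A gene deposited with the same symbol (ENSDARG00000093043) lies on the same chromosome from 9377005, but the reference name table calls it ugt2b1. Another of that symbol, ENSDARG00000110614, is listed only for the high dose. The files do not say how reads shared by such genes were counted. ENSDARG00000091624 and ENSDARG00000093043 summed to 5.03, 2.99, 2.61 and 3.12 CPM at the low dose, without overlap with 1.47, 0.213, 2.40, 1.46 and 0.520 CPM in controls. At the low dose most of this sum came from ENSDARG00000091624 itself, so it adds no separate evidence.

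Of the 2 genes with lower values and an unadjusted p under 0.05, the phenol sulfotransferase gene sult1st6 had 5.66, 8.01, 6.66 and 3.23 CPM at the low dose, against 12.3, 7.18, 10.4, 10.3 and 10.2 CPM in controls. The groups overlapped only through control replicate 2. The log2 fold change was -0.78 (SE 0.30, edgeR adjusted p = 0.924), or -0.57 without low dose replicate 4. The mu class gene gstm.1 had 24.2, 31.6, 28.1 and 11.3 CPM at the low dose, against 27.9, 29.6, 53.2, 36.1 and 39.8 CPM in controls, and its log2 fold change was -0.65 (SE 0.29, edgeR adjusted p = 0.924). Its lowest value was in low dose replicate 4, without which the fold change was -0.41. The other mu genes, gstm.2 at -0.56 (SE 0.37) and gstm.3 at -0.70 (SE 0.45), had lower means as well.

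**Figure D4:**
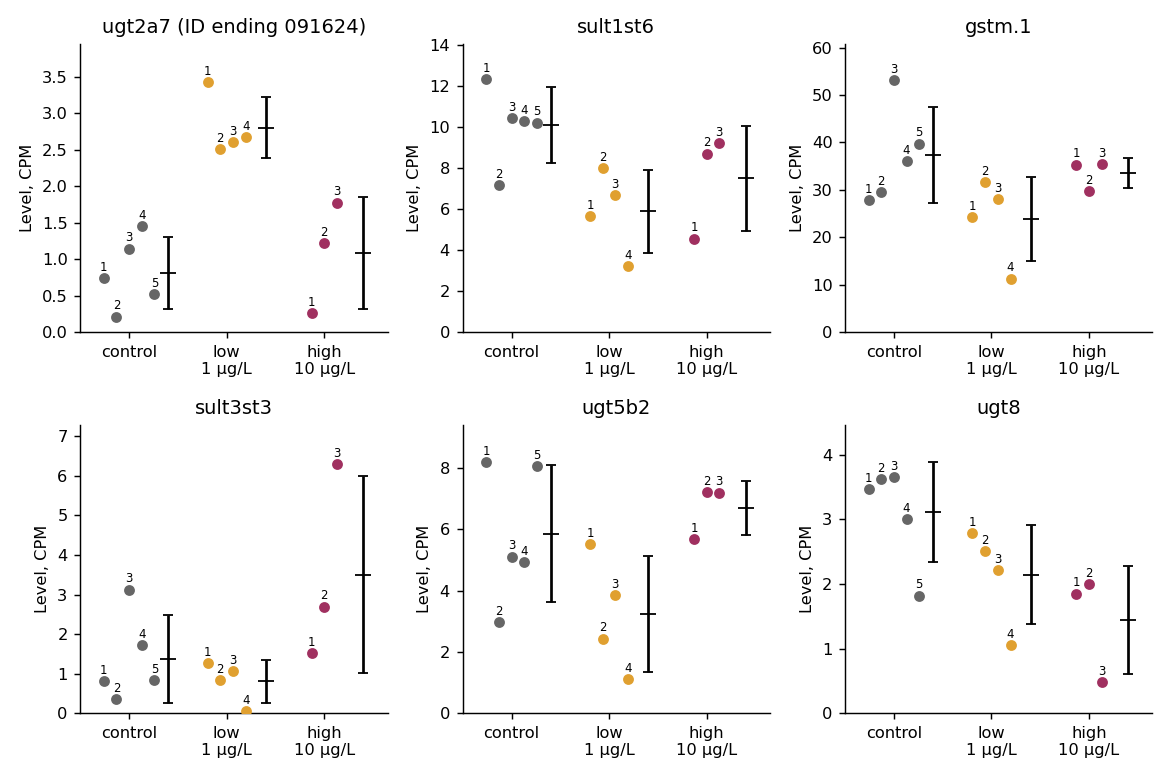
Level in CPM of 6 conjugation enzyme genes in each library (numbered points), with the mean and SD of each group. For the ugt2a7 copy ENSDARG00000091624 the 4 low-dose libraries lie above all controls. For sult3st3 high dose replicate 3 stands highest at 6.30 CPM, and for ugt8 it stands lowest at 0.485 CPM.

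By family, 4 of 14 gst, 7 of 15 ugt and 3 of 13 sult genes had a log2 fold change above 0 at the low dose. In all that was 14 of 42, beside 50.2% of all genes. The medians were -0.21 for gst, -0.16 for ugt and -0.33 for sult, against 0.0013 over all genes tested. The gst count rested on single libraries: it was 8 of 14 (median 0.0107) without low dose replicate 4 and 2 of 14 without control replicate 2. The sult count was 5 of 14 without low dose replicate 3 and 6 of 13 without control replicate 3. Without the 3 libraries that stood apart the gst, ugt and sult counts were 7 of 14, 4 of 17 and 5 of 13. Exocrine pancreas markers stood higher at the low dose, though none passed the threshold: 9 of 10 were listed, ctrb1 was at 0 in 10 libraries, and all 8 tested had a higher mean, with a median log2 fold change of 0.93 and 4 at an unadjusted p under 0.05. Their summed level was 1288 to 2377 CPM at the low dose, against 429 to 2029 CPM in controls, and it was highest in low dose replicate 4. Their part in the family medians was not tested.

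At the high dose no conjugation enzyme gene passed the threshold, and none of the 42 had all 3 treated libraries above or all below the controls. Over all genes, 0.00% passed (0 of 18618), 1.39% had every treated library above and 1.08% below the controls, and 2.00% had an unadjusted p under 0.05, against 0 of the 42. Without control replicate 3 there were 3 of the 42 at an unadjusted p under 0.05, beside 3% of all genes. Without high dose replicate 1 there were 2, beside 1.94%, and without control replicate 5 there was 1, beside 2.08%. DESeq2 called 4 of the genes tested (0.0215%), and the authors' deposited table holds 4 of them under an adjusted p of 0.05 (0.0215%). None of these was a conjugation enzyme gene.

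The smallest p belonged to ugt8, which in mammals makes the galactolipids of myelin. It had 1.85, 2.00 and 0.485 CPM at the high dose, against 3.46, 3.62, 3.65, 3.00 and 1.82 CPM in controls, with the overlap due to control replicate 5. The log2 fold change was -1.10 (SE 0.54, edgeR adjusted p = 1), or -0.69 without high dose replicate 3. In the authors' deposited table its log2 fold change was -1.12, with a p of 0.0403 and an adjusted p of 1. At the low dose ugt8 had 2.79, 2.51, 2.22 and 1.06 CPM.

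A pair of sulfotransferase genes came next. For sult6b1 the log2 fold change at the high dose was 0.53 (SE 0.27), and for sult3st3 it was 1.37 (SE 0.69), both with an edgeR adjusted p of 1. The sult3st3 gene had 1.52, 2.69 and 6.30 CPM at the high dose, against 0.810, 0.355, 3.13, 1.73 and 0.845 CPM in controls, and without high dose replicate 3 its fold change was 0.63. Of the most abundant genes, gstp1 was at 0.01 (95% interval -0.58 to 0.61) and sult4a1 at -0.05 (-0.42 to 0.32).

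By family, 6 of 14 gst, 9 of 15 ugt and 7 of 13 sult genes had a log2 fold change above 0 at the high dose, 22 of 42 beside 49.5% of all genes. The medians were -0.03, 0.19 and 0.22, against -0.0032 over all genes. The gst count was 10 of 14 without high dose replicate 1 or without control replicate 3, 2 of 14 without high dose replicate 2, and 3 of 14 without high dose replicate 3, control replicate 2 or control replicate 5. Without control replicates 2 and 3 the ugt count was 5 of 15. Hepatocyte markers stood higher at the high dose, though none passed the threshold: 12 of 13 had a higher mean, with a median log2 fold change of 0.94, and 5 had an unadjusted p under 0.05. The summed hepatocyte level of high dose replicate 1 was 1166 CPM, within the control range, and this library also had the lowest gst and sult sums of the 3. The medians of the enterocyte, pronephros, neuron, skeletal muscle, erythroid and skin marker lists lay between -0.14 and 0.14 at the high dose, and exocrine pancreas markers were above 0 in 6 of 8 (median 0.30). The part of the hepatocyte markers in the sult and ugt medians was not tested.

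**Figure D5:**
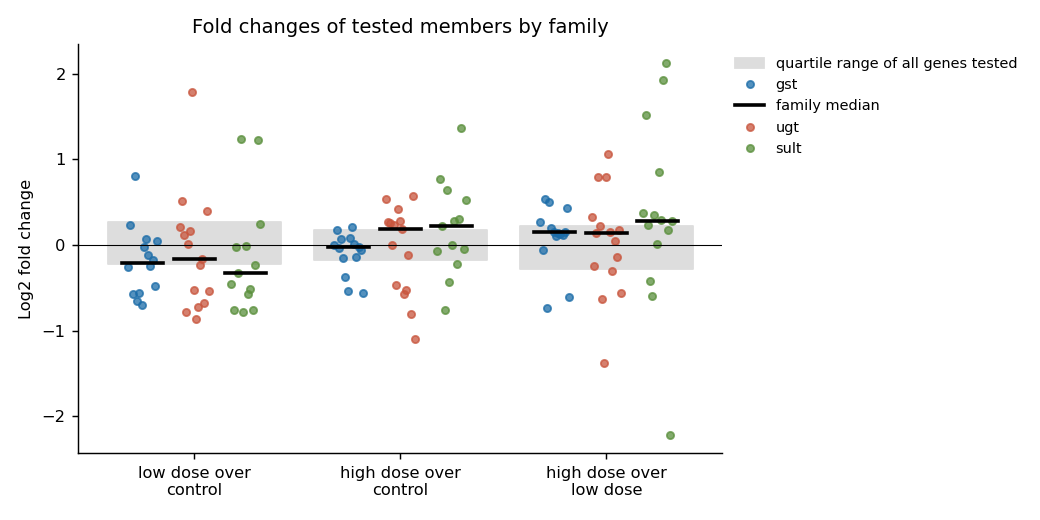
Log2 fold change of each tested conjugation enzyme gene in the 3 comparisons, by family, with family medians (bars) and the range between the quartiles of all genes tested (grey). The low-dose medians lie below 0 in all 3 families, and the highest low-dose point is the ugt2a7 copy ENSDARG00000091624 at 1.79.

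The doses were also compared with each other, over the 25004 genes in both tables and with the controls in the fit, and 43 conjugation enzyme genes were tested. By edgeR 0.00% of all genes passed (0 of 18786), and 0 of the 43, as with DESeq2. At an unadjusted p under 0.05 there were 2 of 43, or 4.65%, beside 4.48% of all genes. There were 5 of 43 without control replicate 2, beside 5.66% of all genes. There was 1 of 42 without low dose replicate 4, beside 2.89%, and 1 of 42 without high dose replicate 3, beside 1.61%. Both genes of the main fit were higher at the high dose. Both had all high-dose libraries above all low-dose libraries, as did 3.84% of all genes.

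The first was sult3st3 on chromosome 22 (15315655 to 15318280, plus strand), with 1.52, 2.69 and 6.30 CPM at the high dose, against 1.28, 0.836, 1.06 and 0.0557 CPM at the low dose. Its log2 fold change between the doses was 2.13 (SE 0.85, edgeR adjusted p = 0.953), or 1.39 without high dose replicate 3. The second was ugt5b2, with 5.68, 7.21 and 7.19 CPM at the high dose, against 5.50, 2.44, 3.86 and 1.11 CPM at the low dose. In controls it had 8.18, 2.99, 5.11, 4.92 and 8.06 CPM, a range that takes in all 3 high-dose and 2 of the 4 low-dose libraries. Its log2 fold change between the doses was 1.06 (SE 0.47, edgeR adjusted p = 0.953), or 0.77 without low dose replicate 4. The gene ugt5b2 is one of those that overlap other ugt5b genes.

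The ugt2a7 copy ENSDARG00000091624 was the 1 gene of 43 with every high-dose library below every low-dose library, as in 2.87% of all genes, with a log2 fold change of -1.37 (SE 0.70, edgeR adjusted p = 0.953), or -0.90 without high dose replicate 1. By family, 11 of 14 gst, 9 of 15 ugt and 11 of 14 sult genes were higher at the high dose than at the low dose, 31 of 43 beside 48.9% of all genes. The medians were 0.15, 0.14 and 0.28, against -0.0106 over all genes. Without low dose replicate 4 the gst count was 6 of 14 (median -0.01) and the sult count 11 of 13 (median 0.19). Hepatocyte markers had a higher mean at the high dose than at the low dose in 13 of 13 (median 0.94, 3 at an unadjusted p under 0.05), and exocrine pancreas markers a lower mean in 8 of 8 (median -0.84, 1 at an unadjusted p under 0.05). The part of these markers in the family medians was not tested. Both comparisons with the controls share the control libraries, so their values are not independent of each other. The comparison between the doses reuses the libraries of each dose, so it is not independent of them either.

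The intervals set what could be seen. For the median conjugation enzyme gene the 95% interval extended 0.91 log2 units each way in the low-dose comparison and 1.00 in the high-dose comparison, against 0.71 and 0.73 over all genes. At the low dose 10 of 42 genes had an interval that stayed within 1 log2 unit of 0 (5 gst, 1 ugt and 4 sult), and at the high dose 13 of 42 did (7 gst, 2 ugt and 4 sult). Between the doses 11 of 43 did. The low-dose count was 6 without low dose replicate 2, the high-dose count was 8 without high dose replicate 2 or 3, and the count between the doses was 7 without low dose replicate 2, high dose replicate 1 or high dose replicate 2. For the other genes a difference of 1 log2 unit in at least 1 direction lay within the interval.

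The genes that supply, export and control conjugation were described from lists of 56 genes, of which 52 were listed in the tables. None passed the threshold in any comparison by edgeR or by DESeq2. At the low dose 27 of 48 tested had a log2 fold change above 0 (median 0.07), beside 50.2% of all genes, and 3 higher and 1 lower had an unadjusted p under 0.05, beside 3.89% of all genes in either direction. At the high dose 25 of 45 were above 0 (median 0.03), beside 49.5% of all genes, with 1 higher and 1 lower at an unadjusted p under 0.05, beside 2.00%. Between the doses 19 of 48 were higher at the high dose (median -0.11), beside 48.9% of all genes, with 1 higher and 2 lower at an unadjusted p under 0.05, beside 4.48%.

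Among regulators keap1b, a repressor that holds Nrf2 in the cytoplasm, had 71.8, 102, 88.5 and 112 CPM at the low dose, against 48.3, 47.6, 50.7, 79.9 and 61.7 CPM in controls. The groups overlapped through control replicate 4 and low dose replicate 1, and the log2 fold change was 0.70 (SE 0.20, edgeR adjusted p = 0.924). Of the 13 regulators tested 11 were above 0 at the low dose (median 0.33), beside 50.2% of all genes. At the high dose 8 of 12 regulators tested were above 0 (median 0.05), beside 49.5% of all genes. Between the doses 1 of 13 was higher at the high dose and 12 were lower (median -0.29), beside 48.9% of all genes that were higher. The same low-dose libraries enter the low-dose count and the count between the doses, so these are not independent.

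For glutathione supply, the cystine transporter gene slc7a11 had 10.5, 7.32, 7.71, 4.74 and 13.2 CPM in controls, 6.30, 6.20, 4.92 and 2.79 CPM at the low dose, and 6.41, 2.78 and 3.15 CPM at the high dose. Its log2 fold change against the controls was -0.79 (SE 0.36, edgeR adjusted p = 0.924) at the low dose and -1.07 (SE 0.41, edgeR adjusted p = 1) at the high dose. Without low dose replicate 4 the low-dose value was -0.58. At the low dose ggt1a, which breaks down extracellular glutathione, was at 1.41 (SE 0.57), and the microsomal transferase gene mgst1.2 at 1.53 (SE 0.56), both with an edgeR adjusted p of 0.924. The level of ggt1a was low and the groups overlapped, at 0.313 to 0.650 CPM in controls and 0.558 to 1.88 CPM at the low dose.

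Of the exporters of conjugates, abcc1 had 39.8, 39.6 and 35.6 CPM at the high dose, against 56.6, 48.8, 46.3, 49.3 and 40.6 CPM in controls. All 3 treated libraries lay below every control, as in 1.08% of all genes, and the log2 fold change was -0.33 (SE 0.16, edgeR adjusted p = 1). The exporter gene abcc2, which acts at the bile canaliculus, was at 0.67 (SE 0.34) at the low dose and at 0.25 without low dose replicate 4. The PAPS synthase gene papss1 was at 0.70 (SE 0.43), or 0.42 without high dose replicate 1, and the glutathione synthetase gene gss at 0.71 (SE 0.47) at the high dose. The steroid sulfatase gene sts, which reverses sulfation, was at 1.44 (SE 0.77) at the low dose. For each of these 4 the 95% interval included 0.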

How the data were processed

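Poly(A) RNA of zebrafish larvae was sequenced in 12 libraries. Per the submitters' processing notes, the tools were featureCounts, HISAT2, DESeq2 and fastp, on GRCz11. The deposited tables, 1 per dose with the same controls, hold raw read counts per gene, per the file headers, and these were used. The authors' deposited log2 fold change, p-value and adjusted p-value per gene are given only where named. Another 34 per-sample columns were not used. Of the 64 genes, 62 are in the low-dose table. Symbols are those deposited; 52 of 61 IDs found in the reference name table carry the same symbol there.

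Each dose was fitted with its controls, and the doses against each other on all 12 libraries, with edgeR 4.0.16 (R 4.3.3): TMM, quasi-likelihood, prior count 0.125, mean count of at least 10. The code was tested on simulated data. Named genes were the 5 highest per family, those with an unadjusted p under 0.05 in either analysis or with groups that do not overlap, preset genes, of which ugt1a1 was not listed, and the pathway genes with the smallest p, of which 1 is not reported here. Alternatives were DESeq2 1.42.0 and its size factors, other count minimums and prior counts, a replicate block and leaving out libraries. Members and lists were chosen with earlier results of these data known.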

Additional observations from a re-analysis of the deposited data

Results flagged for a closer look

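At the low dose, sult2st2 had 8.19 CPM in replicate 4, far from the other low-dose libraries at 18.4, 16.7 and 16.8 CPM; controls ran from 7.18 to 37.4 CPM. The summed level of the ugt genes was 13.1 CPM per kilobase in control replicate 2, while the other controls lay between 23.6 and 25.6. Such gaps were looked for in 72 groups of values, of which 2 were marked, and chance marks about 1 in 20.

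For sult3st3 every high-dose library lay above the control mean of 1.37 CPM and every low-dose library below it. That mean includes control replicate 3, the highest control at 3.13 CPM. The log2 fold change was 1.37 at the high dose (95% interval -0.14 to 2.88). At the low dose it was -0.76 (SE 0.82, 95% interval -2.55 to 1.03), so both intervals included 0. The difference between the doses was 2.13 (edgeR adjusted p = 0.953, short of the threshold). It was the gene marked among the 31 genes checked for such moves.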

How the results depend on the processing

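Over 1032 recomputed values of 69 results, no single-gene fold change among those recomputed changed sign, and 0 conjugation enzyme genes passed in every fit run. The genes recomputed had been picked for a small unadjusted p, so a change of sign was unlikely from the start. Most tested genes were not recomputed one by one, among them gstp1, sult4a1, gstm.2 and gstm.3, and sult3st3 at the low dose. Signs did change among the members as a whole. At the high dose, between 2 and 10 of 14 gst genes were above 0 with single libraries left out. Over all genes, the counts called (0 by edgeR in each comparison) were 1 with DESeq2 at the low dose, 4 with DESeq2 and 1 without the libraries that stood apart at the high dose, and 3 without those libraries between the doses. That alternative was added after the data were seen.

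Conjugation enzyme genes at an unadjusted p under 0.05 numbered 3 at the low dose, 1 with the replicate block and between 1 and 7 with single libraries left out. At the high dose they numbered 0, beside 2.00% of all genes. There was 1 with DESeq2 (beside 2.76%), 1 with the replicate block (beside 1.5%) and 2 without the libraries that stood apart (beside 5.09%). With single libraries left out they numbered between 0 and 3, beside 0.911% to 4.32% of all genes. Between the doses they numbered 2, beside 4.48% of all genes. There was 1 at a mean count of at least 50 (beside 4.88%) and 1 with the replicate block (beside 2.58%). There were 3 with DESeq2 (beside 5.59%) and 3 without the libraries that stood apart (beside 5.89%). With single libraries left out they numbered between 1 and 5, beside 1.61% to 6.53% of all genes.

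Some family medians changed sign. With single libraries left out, they ran at the low dose from -0.31 to 0.01 for gst, -0.43 to 0.10 for ugt and -0.48 to -0.06 for sult, which stayed below 0. At the high dose they ran from -0.18 to 0.13 for gst, -0.10 to 0.23 for ugt and -0.03 to 0.54 for sult. The cause was not tested.

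Whether replicate numbers pair the samples could not be settled from the correlations. Residuals of 10 same-numbered pairs correlated at -0.26 to 0.26, with 4 over 0.1, against -0.34 to 0.31 for 37 other pairs. Of 11 libraries, 5 correlated best with their own number. The main fits treat the samples as unpaired.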
